A study of Monodelphis domestica with 6 samples.

Results

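The 10 genes described here write, copy, read out for copying or remove DNA methylation, namely DNMT1, DNMT3A, DNMT3B, DNMT3L, TET1, TET2, TET3, UHRF1, UHRF2 and TDG. They were taken by gene symbol from the 35665 genes of the deposited tables, and all 10 had a row. RNA-seq was available for neonatal skin fibroblasts (neoSFs, n = 2) of the opossum Monodelphis domestica, a laboratory marsupial, and for the iPSCs reprogrammed from them (monoiPSCs, n = 4). The neoSFs were untreated primary cultures from the back skin of 10-day-old wild-type female pups of the inbred strains FD2M1 and LSD1, with 1 library per strain. The monoiPSCs were the wild-type FD2M1 line and the wild-type LSD1 line, each at passage 15 and passage 25. They were made with episomal plasmids that encode human OCT4, SOX2, NANOG, KLF4, LIN28 and cMYC, delivered with the plasmids pCE-mp53DD and pCXB-EBNA1. The lines were grown without feeders in medium with LIF, bFGF and a ROCK inhibitor. None of the 10 genes was among the factors delivered. Each line was started from picked colonies of 1 strain, and the number of pups behind a culture is not given in the sources used here. The passages of a line are not separate derivations, so the p-values measure the spread between these libraries, part of which may be technical.

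Methylation of cytosine in CG dinucleotides is laid down by DNMT3A and DNMT3B, the de novo methyltransferases, with DNMT3L as a partner that has no catalytic activity of its own. After replication UHRF1 recognizes CG sites methylated on a single strand and brings in DNMT1, which copies the mark to the new strand. The TET enzymes oxidize 5-methylcytosine stepwise, and TDG cuts out the more oxidized forms so that base excision repair can restore cytosine. In mouse embryonic stem cells (ESCs) DNMT3B, DNMT3L and TET1 are known to be expressed.

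The total count was 14278794 and 16982978 in the neoSF libraries and 28684754 to 35564261 in the monoiPSC libraries. Whether the mates of a read pair were counted separately is not given in the sources used here, so a count may not stand for the same number of fragments in the monoiPSCs as in the neoSFs, floors included. The neoSFs were read in-house with short single-end reads and the monoiPSCs by a sequencing service with longer paired-end reads, so platform and cell type cannot be told apart. Values are normalized read counts (NRC), taken from the deposited log2 values after DESeq normalization. A count of 3 was used as the detection floor, which corresponds to NRCs of 5.85 (FD2M1 neoSFs), 4.75 (LSD1 neoSFs) and 1.55 to 1.88 (monoiPSCs). Of 9 fibroblast markers found, all 9 reached an NRC of 20 in the neoSFs of each strain and 7 did so in all 4 monoiPSC libraries, with a summed NRC of 1527436 and 1674086 in the neoSFs and 2536 to 7580 in the monoiPSCs. All 7 pluripotency markers reached that level in the 4 monoiPSC libraries, against 1 of 7 in the neoSFs. The summed NRC of 5 neuron markers was 172.8 and 425.4 in the neoSFs and 3746 to 8793 in the monoiPSCs. That of 4 skeletal muscle markers was 334.5 and 1180 against 1341 to 10354, and its members differed. MYOG was at 205.7 and 22.2 in the neoSFs and 985.5 to 5549 in the monoiPSCs, and MYF5 was at most 8.94 in any library. In FD2M1, the monoiPSCs were lower for DES (882.5 against 562.7 and 314.6) and, at passage 25, for MYOD1 (92.0 against 35.1). In LSD1 both were higher. DCT, of the melanocyte list, ranged from 4372 to 15279 in the monoiPSCs, MITF lay at 221.7 to 338.2 there and at 223.2 and 382.0 in the neoSFs, and TYR, TYRP1 and MLANA stayed under an NRC of 20 in all 4 monoiPSC libraries. Keratinocyte, endothelial and immune marker sums were at most 156, 262.7 and 119.7 in any library. Of the hypoblast and trophectoderm markers, GATA4 and APOA2 were listed at 0 in all 4 monoiPSC libraries, and SOX17 was at most 2.51 there. CDX2 lay between 1124 and 3991 in the monoiPSCs. GATA2, GATA3, GATA6 and PTGES went the other way. They were at most 89.2, 54.0, 28.3 and 52.3 in the monoiPSCs, against at least 323.6, 203.9, 419.5 and 342.6 in the neoSFs. The part of such cells in the results below was not tested, and in bulk RNA fewer cells of a type and less RNA per cell cannot be told apart.

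**Figure D1:**
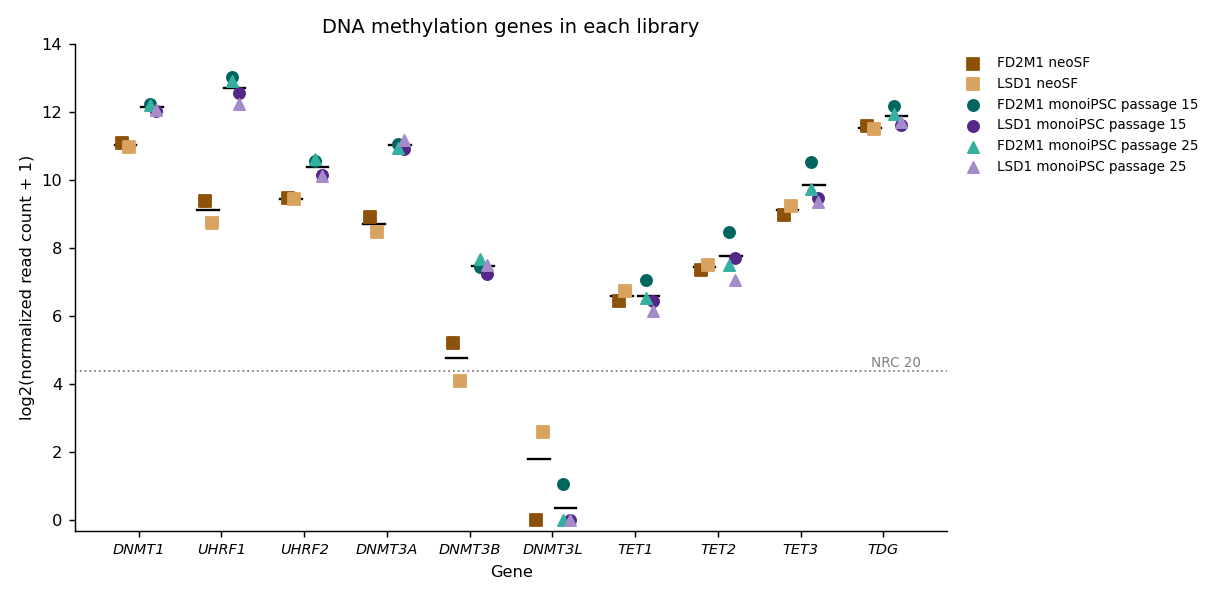
Level of each of the 10 genes in each library, as log2(NRC + 1) on the vertical axis. Squares are neoSFs, circles monoiPSCs at passage 15 and triangles monoiPSCs at passage 25, the short black lines are group means, and the dotted line marks an NRC of 20. The groups lie apart for DNMT1, UHRF1, UHRF2, DNMT3A and DNMT3B and, by a narrow gap, for TET3 and TDG. They mix for TET1 and TET2, and DNMT3L lies below the dotted line in every library.

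Of the 10 genes, 9 passed the expression filter (20 NRC or more in every library of 1 of the cell types) and 5 were differentially expressed (DE), all of them higher in monoiPSCs. These were UHRF1, DNMT3B, DNMT3A, DNMT1 and UHRF2. DNMT3B passed the filter through the monoiPSCs alone, where it is high, so its call is no independent support. TET1, TET2, TET3 and TDG were not DE, and a difference between the genes that were DE and those that were not was not tested. DE means a change of 2-fold or more with an adjusted p no greater than 0.05 in edgeR's quasi-likelihood test over all 13072 tested genes. In that test 24.3% of all genes were called higher, 21.6% lower and 45.9% in either direction. By adjusted p alone the same 5 genes passed, against 32.8% of all genes that passed and were higher and 62.2% that passed in either direction. Counted in either direction, the share of changed genes among the 9, 55.6%, is thus near the background. All 5 DE genes were higher, so 55.6% of the 9 were called higher, against 24.3% of all genes. This difference in 9 genes was not tested. The median log2 fold change was 1.02 over the 9 genes and 0.08 over all genes tested. The lowest monoiPSC NRC exceeded the highest neoSF NRC for 7 of the 9 genes, all but TET1 and TET2, against 36.1% of all genes tested. The reverse order held for 0 of the 9, against 37.1%.

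UHRF1, the factor that brings DNMT1 to newly replicated DNA, had the highest fold change of the 9 genes tested. UHRF1 (gene 100018911, on chromosome 3 in MonDom5) reached an NRC of 671.2 in FD2M1 neoSFs and of 430.4 in those of LSD1. Among the monoiPSCs, the FD2M1 line had 8356 at passage 15 and 7685 at passage 25, and the LSD1 line 6095 and 4800. All 4 monoiPSC libraries were far above both neoSF libraries, and the LSD1 library was the lower one within the neoSFs and within each passage. The group means were 550.8 ± 170.3 (SD, n = 2) and 6734 ± 1601 (SD, n = 4), a 13.1-fold rise with a 95% interval of 7.60 to 22.6 (edgeR, adjusted p = 0.00011). Of the genes tested, 7.12% had a higher fold change.

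DNMT1, the maintenance methyltransferase, rose less. DNMT1 (gene 497245, chromosome 3) had an NRC of 2173 and 1993 in the FD2M1 and LSD1 neoSFs. The FD2M1 monoiPSCs had 4777 at passage 15 and 4768 at passage 25, and the LSD1 monoiPSCs 4182 and 4281. The monoiPSC values were close to each other, within a factor of 1.14, and none came near a neoSF value. The log2 fold change was 1.21 ± 0.15 (SE; edgeR, adjusted p = 0.000390), which is 2.31-fold with an interval of 1.82 to 2.93. Against a null of 2-fold in place of no change (glmTreat), DNMT1 was not called (adjusted p = 0.0795).

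UHRF2 is a paralog of UHRF1 with the same order of domains, and it does not replace UHRF1 in copying methylation. UHRF2 (gene 100015318, chromosome 6) had an NRC of 715.3 and 689.3 in the neoSFs. In the monoiPSCs it was 1515 and 1589 in FD2M1 and 1138 and 1107 in LSD1, at passages 15 and 25. The groups did not overlap, and both FD2M1 values lay above both LSD1 values. The log2 fold change was 1.02 ± 0.21 (SE; edgeR, adjusted p = 0.00397) and sat on the 2-fold threshold, and the call was lost in 9 of 17 alternative analyses, among them RLE scaling, DESeq2 and limma.

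The de novo enzymes DNMT3A and DNMT3B both rose. DNMT3A (gene 100030681, chromosome 1) had an NRC of 480.3 in FD2M1 neoSFs and of 358.4 in those of LSD1. Its monoiPSC values were 2115 and 1965 in FD2M1 and 1945 and 2340 in LSD1, at passages 15 and 25. Unlike UHRF1, DNMT3A did not separate the lines, and the LSD1 line held both the lowest and the highest monoiPSC value. The rise was 5.34-fold, with an interval of 3.93 to 7.27 (adjusted p = 6.07e-05, edgeR), and it was called in all 17 alternatives.

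DNMT3B (gene 100009884, chromosome 1) rose from a level close to the expression threshold. Its NRC was 36.4 in FD2M1 neoSFs and 16.2 in those of LSD1. These rest on 18.7 and 10.2 counts, with 95% Poisson intervals of 22.3 to 57.9 and 7.60 to 29.1 on the NRC scale that cover counting error only. In the monoiPSCs the NRC was 174.8 and 202.6 in FD2M1, and 149.9 and 181.0 in LSD1, at passages 15 and 25. Both lines were a little higher at passage 25, and no monoiPSC value approached a neoSF value. The rise was 7.23-fold with an interval of 3.65 to 14.3 (log2 fold change 2.85, adjusted p = 0.000935, edgeR). DNMT3B entered the test through the monoiPSC group alone, because the LSD1 neoSF library was under an NRC of 20. It is high in that group, so its call is no independent support. Without the FD2M1 neoSF library its log2 fold change was 3.56, and without the LSD1 neoSF library 2.35.

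DNMT3L, the partner of the de novo enzymes, was at or near the detection floor in both cell types. DNMT3L (gene 100027435, chromosome 4) was at 0 counts in FD2M1 neoSFs and at 3.18 in those of LSD1. It had 2 counts in FD2M1 monoiPSCs at passage 15 and 0 counts in the other 3 monoiPSC libraries. In these 3 libraries a count of 0 allows an NRC of up to 1.58 for LSD1 at passage 15, 1.88 for FD2M1 at passage 25 and 1.55 for LSD1 at passage 25. DNMT3L was not tested, and no fold change is given. The counts refer to the gene model of MonDom5, and whether that model covers the transcript made in these cells was not tested.

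**Figure D2:**
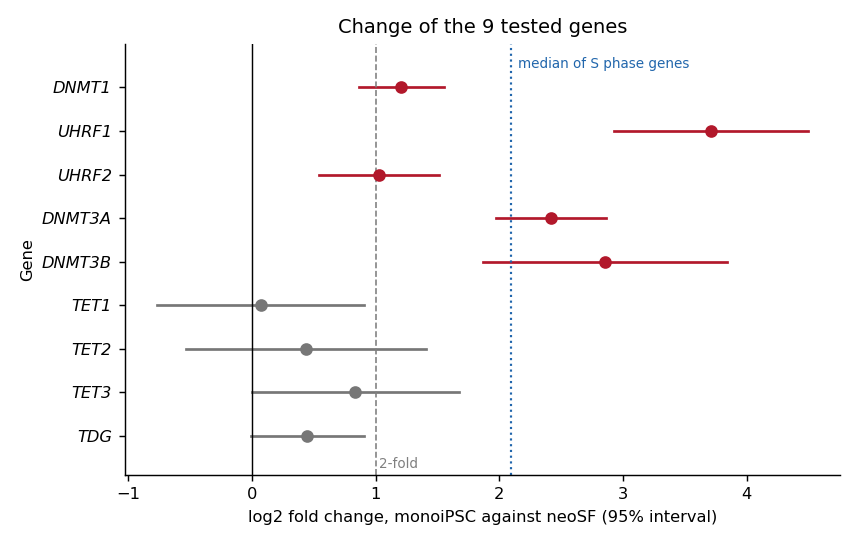
Log2 fold change of the 9 tested genes in monoiPSCs against neoSFs, with 95% intervals from edgeR. Red marks DE genes and grey the others, the dashed line is 2-fold, and the dotted line is the median log2 fold change of the S phase list, 2.10. The estimates of UHRF1, DNMT3A and DNMT3B lie above that median, and those of DNMT1 and UHRF2 below it. The intervals of DNMT3A and DNMT3B include the median.

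None of the erasers passed the test. Between the highest and the lowest monoiPSC library the TET genes differed by 1.89 to 2.69 times, against 1.14 to 1.74 times for the 5 DE genes. TDG differed by 1.485 times, inside the range of the DE genes. TET1 (gene 100014701, chromosome 1), the first enzyme of the family, had an NRC of 87.2 and 106.1 in the FD2M1 and LSD1 neoSFs. Its monoiPSC values were 133.4 and 91.0 in FD2M1 and 85.5 and 70.6 in LSD1, at passages 15 and 25. The groups overlapped, with the highest value in FD2M1 at passage 15 and the lowest in LSD1 at passage 25. The log2 fold change was 0.07 with an interval of -0.77 to 0.91 (adjusted p = 0.878, edgeR). Its sign turned in 5 of the 17 alternatives, so no direction is given.

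TET2 (gene 100013110, chromosome 5) had an NRC of 163.4 and 181.4 in the neoSFs. In the monoiPSCs it ran from 132.1 in LSD1 at passage 25 to 355.0 in FD2M1 at passage 15, with 208.3 in LSD1 at passage 15 and 180.9 in FD2M1 at passage 25. The neoSF values lay inside this range, and the log2 fold change was 0.44 with an interval of -0.54 to 1.41 (adjusted p = 0.387, edgeR). Without FD2M1 at passage 15 it was 0.10, and with passage 25 alone -0.06.

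TET3 (gene 100617359, chromosome 1), the member of the family known for acting in the zygote, had an NRC of 506.2 and 604.2 in the neoSFs. The monoiPSC values were 1480 and 857.6 in FD2M1 and 714.2 and 653.1 in LSD1, at passages 15 and 25. All 4 values were above both neoSF values, but the lowest by a small margin, while FD2M1 at passage 15 stood high. The log2 fold change was 0.84 with an interval of 0.00 to 1.67 (adjusted p = 0.0752, edgeR). Without FD2M1 at passage 15 it was 0.51. TET3 was DE in 1 of the 17 alternatives, scaling by the total count (log2 fold change 1.36, adjusted p = 0.0122), in which the median of all genes moved to 0.61.

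TDG (gene 100021839, chromosome 8), the glycosylase that follows the TET enzymes, had an NRC of 3052 and 2879 in the neoSFs. In the monoiPSCs it was 4670 and 3968 in FD2M1 and 3145 and 3352 in LSD1, at passages 15 and 25. The groups were apart by a narrow gap, and the FD2M1 line was the higher at both passages. The log2 fold change was 0.45 with an interval of -0.01 to 0.90 (adjusted p = 0.0792, edgeR), under the 2-fold threshold in all 17 alternatives. With the strain as a replicate block, which pairs each line with its own neoSFs, the adjusted p of TDG was 0.0466 at a log2 fold change of 0.43, and with scaling by the total count 0.00320 at 0.97.

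The ratio of counts of 2 genes within a library does not depend on how the libraries are scaled, although it still depends on read length and gene models. UHRF1 to DNMT1 was 0.309 and 0.216 in the neoSFs of FD2M1 and LSD1. In the monoiPSCs the ratio was 1.75 and 1.61 in FD2M1 and 1.46 and 1.12 in LSD1, at passages 15 and 25. UHRF1 thus rose relative to DNMT1 in both lines, by 5.66 times on the means. UHRF2 to UHRF1 went the other way, from 1.07 and 1.60 in the neoSFs to between 0.181 and 0.231 in the monoiPSCs.

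DNMT3A to DNMT3B was 13.2 for FD2M1 neoSFs, 22.1 for LSD1 neoSFs and between 9.70 and 13.0 for the monoiPSCs. The FD2M1 neoSF ratio lay just above the monoiPSC range, and both neoSF ratios rest on the few DNMT3B counts given above, so a difference between the groups was not resolved at this depth. Within the TET family, TET1 to TET3 was 0.172 and 0.176 in the neoSFs and 0.0901 to 0.120 in the monoiPSCs, a ratio 1.64 times higher in neoSFs with no overlap. TET3 to TET2 was 3.10 and 3.33 in the neoSFs and 3.43 to 4.95 in the monoiPSCs. TET1 to TET2 overlapped between the groups, at 0.533 and 0.585 against 0.376 to 0.535. The ratios among the TET genes changed less than those that involve UHRF1.

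**Figure D3:**
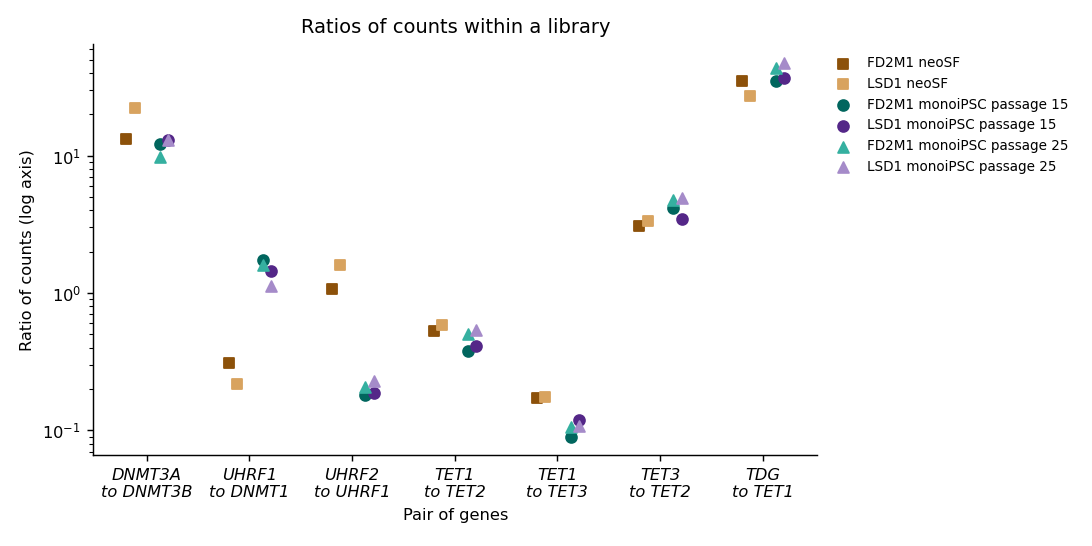
Ratios of counts of pairs of genes in each library, on a logarithmic vertical axis, with neoSFs as squares and monoiPSCs as circles (passage 15) and triangles (passage 25). UHRF1 to DNMT1 is 0.216 and 0.309 in the neoSFs and 1.12 to 1.75 in the monoiPSCs, while the ratios within the TET family differ less. The groups still lie apart for TET1 to TET3 and TET3 to TET2, and overlap for TET1 to TET2.

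Each monoiPSC line was also set against the neoSFs of its own strain. DNMT1 gave nearly the same log2 difference in NRC in every library, 1.14 and 1.13 in FD2M1 and 1.07 and 1.10 in LSD1, at passages 15 and 25. DNMT3B gave 2.26 and 2.48 in FD2M1 and 3.21 and 3.48 in LSD1, where the LSD1 neoSF library with its 10.2 counts is the reference. All 4 differences were above 0 for 7 of the 9 tested genes, against 39.4% of all genes. TET1 was above 0 in 2 of 4 libraries, both FD2M1, and TET2 in 3 of 4.

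A difference between the FD2M1 and LSD1 lines in the change from neoSFs was tested as an interaction, with the passages of a line as its replicates. Of the 13072 genes, 11 were called (0.0841%, edgeR), and none was among the 9 genes, of which 0 were under an unadjusted p of 0.05, against 9.13% of all genes. DESeq2 called 306 genes and again none of the 9. The estimates furthest from 0 among the 9 were those of TET3, with a log2 difference of -1.05 for LSD1 against FD2M1 and an interval of -2.31 to 0.21 (adjusted p = 0.639, edgeR), and of DNMT3B, with 1.02 and an interval of -0.57 to 2.61. With 1 neoSF library per strain the intervals are wide, and they do not show that the strains respond alike. Each strain was present as 1 line, so strain and line cannot be told apart.

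**Figure D4:**
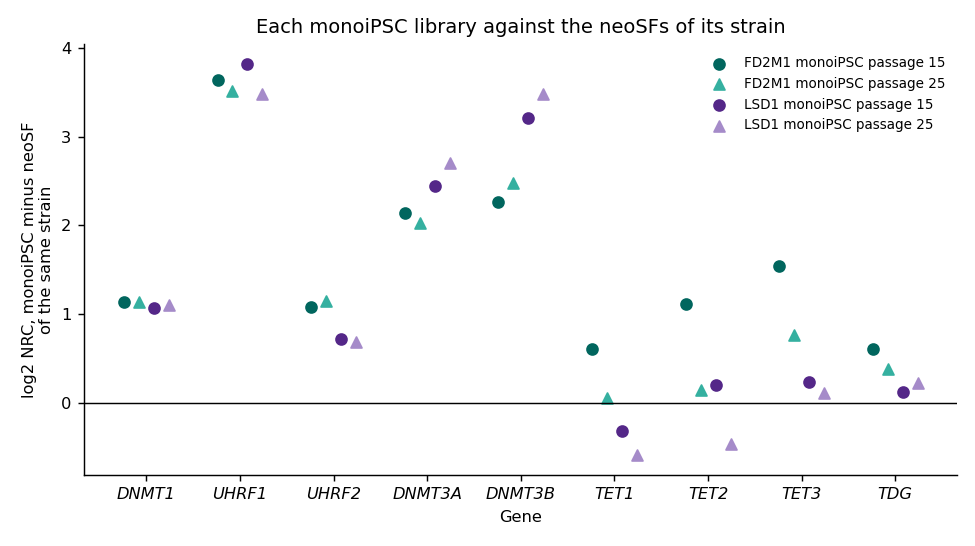
Log2 NRC of each monoiPSC library minus that of the neoSFs of the same strain, for the 9 tested genes. Circles are passage 15 and triangles passage 25, in green for FD2M1 and purple for LSD1. The 4 points of DNMT1 lie between 1.07 and 1.14, whereas those of TET1 lie on both sides of 0.

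Within the monoiPSCs, 0 of the 9 genes were DE between the lines and 0 between the passages in edgeR or DESeq2. Between LSD1 and FD2M1, 4 of the 9 were under an unadjusted p of 0.05, against 14.2% of the 12252 genes tested, and all 4 estimates were lower in LSD1. These were UHRF1, with a log2 difference of -0.56 (interval -0.92 to -0.20, adjusted p = 0.228, edgeR), UHRF2 with -0.46, TET3 with -0.72 and TDG with -0.40. The S phase genes moved with the same split, since their summed NRC was 81375 and 75411 in FD2M1 and 60795 and 54584 in LSD1, and its part in these values was not tested. Between passage 25 and passage 15, 1 of the 9 genes was under an unadjusted p of 0.05, against 9.35% of all genes. This was TET2, with a log2 difference of -0.83 (interval -1.48 to -0.18, adjusted p = 0.468, edgeR).

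Maintenance of methylation is coupled to DNA replication, and UHRF1 and DNMT1 are known to be made mainly in cycling cells. A list of 42 S phase genes in wide use, from which UHRF1 was removed, was therefore counted beside the 10 genes. Of the 38 genes found, all 38 were tested. Of these, 34 were DE and higher (89.5%) and 0 were DE and lower, against 24.3% and 21.6% of all genes. The median log2 fold change of the list was 2.10. CDC45, a part of the replicative helicase, rose 14.2-fold (adjusted p = 3.98e-05) and TYMS, which makes thymidylate, 10.6-fold (adjusted p = 3.21e-05), while UBR7 and MCM4 rose least of the DE genes, 2.64-fold and 2.92-fold. The call of MCM4 was lost with glmTreat (adjusted p = 0.0971) and without the LSD1 neoSF library (log2 fold change 1.21, adjusted p = 0.0745, edgeR). The summed NRC of the list was 19924 and 14814 in the neoSFs and 54584 to 81375 in the monoiPSCs. Relative to the list's median, UHRF1 was 1.61 higher on the log2 scale, DNMT3B 0.76 and DNMT3A 0.32 higher, whereas DNMT1 was 0.89 and UHRF2 1.07 lower. TET1, TET2, TET3 and TDG lay between 1.26 and 2.03 below it. The part of cycling in the change of these genes was not tested.

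Among 7 partners of maintenance methylation, 6 were DE and higher (85.7%) and 0 lower, against 24.3% and 21.6% of all genes. The median log2 fold change was 2.96. CDCA7, PCNA and HELLS of this list are also in the S phase list. CDCA7L, a paralog of the HELLS activator CDCA7, rose the most, from an NRC of 319.4 and 268.4 in the neoSFs to 4417 to 6920 in the monoiPSCs (19.1-fold, adjusted p = 2.97e-05, edgeR). HELLS, a chromatin remodeler needed for methylation of repeats, rose 9.26-fold, from 402.1 and 212.7 to 1748 to 3355. CDCA7 rose 6.26-fold, although its neoSF values of 466.6 and 138.6 were far apart. PCNA, the replication clamp, had the smallest rise among the DE genes, 3.60-fold. USP7, the deubiquitinase that acts on UHRF1 and DNMT1, was not DE, at 3007 and 3040 against 4041 to 5272.

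**Figure D5:**
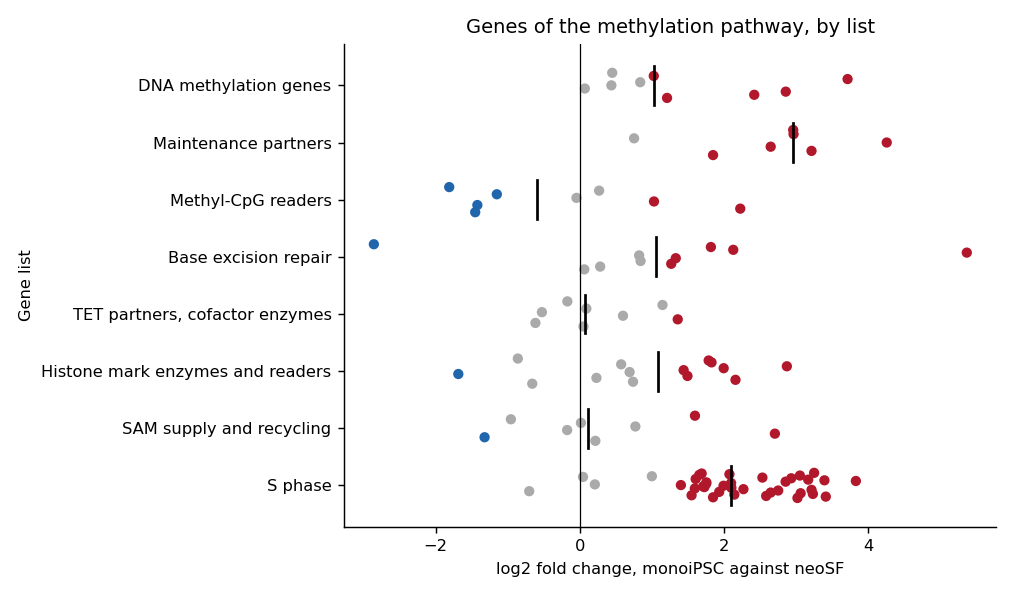
Log2 fold change in monoiPSCs against neoSFs for every tested gene of 8 lists, 1 point per gene. Red points are DE and higher, blue points DE and lower, grey points not DE, and black bars are list medians. Maintenance partners and S phase genes lie mostly to the right, while the methyl-CpG readers lie on both sides of 0.

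The proteins that read methylated CG sites did not move as 1 group. Of 8 readers tested, 2 were DE and higher and 4 DE and lower, against 24.3% and 21.6% of all genes, with a median log2 fold change of -0.60. MBD1 rose 4.67-fold, from an NRC of 471.8 and 463.6 to 1867 to 2150 (adjusted p = 3.35e-05, edgeR). MBD3, a subunit of the NuRD complex that in mammals does not select methylated DNA, rose 2.04-fold from 1813 and 2598 to 3810 to 4942, and its call was lost in 9 of 17 alternatives, among them RLE scaling, DESeq2, limma and the analysis without the FD2M1 neoSF library (log2 fold change 0.79). ZBTB38, a zinc finger protein that binds methylated DNA, fell the most, from 1261 and 1106 to 205.2 to 452.4 (log2 fold change -1.81, adjusted p = 0.00150, edgeR). MBD2 and ZBTB4, also lower and chosen after their values were seen, had log2 fold changes of -1.42 and -1.15. With scaling by the total count, which moves the median of all genes to 0.61, ZBTB38 was the 1 reader still DE and lower.

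Base excision repair acts after TDG. Of 13 genes, 11 were found and 10 tested, of which 5 were DE and higher and 1 lower, against 24.3% and 21.6% of all genes, with a median log2 fold change of 1.05. NEIL3 and NEIL2 are glycosylases. NEIL3 rose 4.36-fold, from an NRC of 80.3 and 102.7 to 274.0 to 459.2 (adjusted p = 0.000913, edgeR). NEIL2 had 4 counts in FD2M1 neoSFs and 0 in those of LSD1, and its NRC was 112.1 to 200.7 among monoiPSCs. It entered the test through the monoiPSCs alone, where it is high, so its call is no independent support, and no fold change is given. PARP1, which senses strand breaks, rose 2.40-fold. GADD45B, a stress-induced gene linked to active demethylation, was lower, at 3075 and 2828 in the neoSFs against 268.8 to 526.7 in the monoiPSCs (log2 fold change -2.86, adjusted p = 0.000101, edgeR). Its paralogs, named after their values were seen, lay the other way. GADD45A was DE and higher, from 278.2 and 744.4 to between 1252 and 2357 (log2 fold change 1.82, adjusted p = 0.00864, edgeR), a call lost with glmTreat and with passage 15 only, and GADD45G, which was not tested, was at the floor in the neoSFs and had an NRC of 16.5 to 71.0 in the monoiPSCs. APEX1 and SMUG1 overlapped between the groups.

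The enzymes around the TET proteins were mostly not DE. Of 8 such genes, 1 was DE and higher (12.5%) and 0 lower, against 24.3% and 21.6% of all genes. The median log2 fold change was 0.07. The DE gene was IDH2, the mitochondrial isocitrate dehydrogenase that forms the TET cosubstrate 2-oxoglutarate. Its NRC was 3595 and 3851 in the neoSFs and 8432 to 9658 in the monoiPSCs (2.56-fold, adjusted p = 0.000255, edgeR).

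Methylation needs S-adenosylmethionine (SAM). Of 8 genes of its supply and recycling, 2 were DE and higher (25%) and 1 lower (12.5%), against 24.3% and 21.6% of all genes. AHCY, which clears the inhibitory product S-adenosylhomocysteine, rose 6.51-fold from 873.4 and 1264 to 6011 to 6930 (adjusted p = 5.88e-05, edgeR). MAT2B, the regulatory subunit of the SAM synthetase, was lower, at 2596 and 2652 against 899.6 to 1127 (log2 fold change -1.32), a call lost with scaling by the total count (-0.80), whereas the catalytic subunit MAT2A overlapped between the groups.

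De novo methylation is guided by histone marks, and of 16 genes that set, remove or bind such marks 14 were found and tested. In this list 7 were DE and higher (50%) and 1 was DE and lower (7.14%), against 24.3% and 21.6% of all genes. The median log2 fold change was 1.09. SUV39H2, a histone H3 lysine 9 methyltransferase, rose 7.31-fold from 278.4 and 152.4 to 1090 to 1713 (adjusted p = 0.000301, edgeR). NSD2, a lysine 36 methyltransferase, rose 4.46-fold, and EHMT2, a lysine 9 methyltransferase, 2.71-fold. KDM1B, the lysine 4 demethylase known for its role in setting imprints in the oocyte, was the lower gene, at 177.8 and 165.4 in the neoSFs and 44.6 to 52.4 in the monoiPSCs (log2 fold change -1.69, adjusted p = 0.00134, edgeR).

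Of 5 germline and pluripotency regulators of methylation 1 was found in the tables. This was PRDM14, which in mouse ESCs represses the de novo methyltransferases. PRDM14 had 1 count in the FD2M1 and 2 in the LSD1 neoSFs, so that neoSFs were at the floor, and an NRC of 887.9 to 1456 in the monoiPSCs. Against 3 counts in a neoSF library monoiPSCs were at least 199-fold higher on TMM-scaled counts. PRDM14 entered the test through the monoiPSCs alone, so its call is no independent support.

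The genes whose profile over the 6 libraries was nearest to that of DNMT3B, by Euclidean distance of centred log2 values among 11382 named genes, were KIF23 (distance 0.229), CDCA5 (0.238) and HOXB9 (0.346). KIF23 and CDCA5 act in mitosis. Nearest to TET1 were RYBP (0.181), SAV1 (0.219) and TSACC (0.253), none of them DE. The distances describe 6 libraries in 2 groups and were not tested.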

How the data were processed

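The data are RNA-seq of 2 neoSF and 4 monoiPSC libraries. The authors used StrandNGS to align reads to MonDom5, to filter them on quality and multiple mapping, and to count them on RefSeq genes. Their raw counts, as deposited, were taken to be estimated counts, since 87.1% of those above 0 have a decimal part (any, with no tolerance), and all were rounded for the tests. A second table deposited by the authors holds log2 values from DESeq normalization, with values under 1 normalized read at 0. NRC is 2 to the power of these values, with a listed 0 kept as 0. A shift of the scaling moves all genes of a library together.

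Genes were tested with edgeR 4.0.16 (glmQLFit, glmQLFTest, TMM, R 4.3.3) over 13072 genes, without a block, and p-values were adjusted over all of them by Benjamini-Hochberg. DESeq2 1.42.0 and limma 3.58.1 were alternatives. Passage and strain within monoiPSCs were fitted over 12252 genes with the other as a covariate. Lists were described by counts and medians. Symbols absent from the tables were looked up by gene number in RefSeq of mMonDom1.pri, another assembly, so no coordinates or sequences are given. The code was tested on simulated data. The 10 genes, the lists and the alternatives were chosen with earlier results of these data known. Named genes are the 10 genes, the 2 highest and 2 lowest DE genes of each list, and the 3 nearest profiles, and some genes of the lists are not reported here by name. Strain, from the sample titles, pairs each monoiPSC line with its parental neoSFs, and across 13072 genes the strain difference in neoSFs correlated with that in monoiPSCs at 0.0402.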

Additional observations from a re-analysis of the deposited data

Results flagged for a closer look

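DNMT3L in FD2M1 monoiPSCs at passage 15 had an NRC of 1.12, from 2 counts, against 0 in the other 3 monoiPSC libraries, and so stood apart from its group by Dixon's criterion. The value is under the floor of 3 counts. Beside 3 libraries at 0 any value above 0 meets the criterion, so the flag carries no weight. The usual rate of about 1 in 20 groups marked by chance does not hold for such tied values. In all, 10 groups were examined.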

How the results depend on the processing

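UHRF1, DNMT3A and DNMT3B were DE in all 17 alternatives. DNMT3B passed the main expression filter through the monoiPSCs alone, where it is high, so its calls are no independent support. DNMT1 was lost with glmTreat alone, which left 3 of the 10 genes DE. TET1 reversed to -0.056 with limma on the log2 values, -0.048 with limma on log2(NRC + 10), -0.18 with passage 25 only, -0.14 without FD2M1 monoiPSCs at passage 15 and -0.07 without the FD2M1 neoSFs, and single libraries left out gave -0.14 to 0.22. TET2 reversed to -0.057 with passage 25 only. The strain difference of UHRF1, 0.07, became -0.12 without LSD1 monoiPSCs at passage 15 and ranged up to 0.262 over the libraries left out. With scaling by the total count, chosen after seeing the data, 4786 genes were higher and 1931 lower, against 3176 and 2824, and 6 of the 10 genes were DE. DESeq2 called 191 genes between the lines, 119 between passages and 306 for the strain difference, where edgeR called 0, 0 and 11. Without an expression filter 35 genes had a strain difference, and leaving out single monoiPSC libraries gave 0 to 110. With strain as a replicate block 6012 genes were DE, and no call among the 10 genes changed. Leaving out a library from the passage or line comparison leaves no residual degrees of freedom, so it was not run. DNMT3L, and DNMT3B in neoSFs, are limited by depth.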
